A study of Homo sapiens with 27 samples.

Results

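The late change on LN523 was followed in 6 of the 27 bulk RNA-seq libraries, namely the 3 libraries labelled LN523 at day 32 and the 3 labelled LN523 at day 22, chosen by their labels alone. The cells were H1, a human embryonic stem cell line, differentiated toward photoreceptors, and the comparison asks which genes changed over the last interval of the protocol on this matrix. LN523 is a laminin heterotrimer of the retina. The sample labels give the LN523 wells as coated with laminin 523 plus laminin 323, the LN521 wells as laminin 521 plus laminin 323, and the LN323 wells as laminin 323 alone. The methods of the study instead pair LN523 and LN323 each with LN521, so each matrix goes here by the first isoform of its label. All wells of days 22 and 32, LN323 and LN521 included, had first received the casein kinase inhibitor CKI-7 and SB431542, a TGF-beta receptor inhibitor. Before day 22 they were moved to a medium with B27 without vitamin A, N2, BDNF, CNTF, retinoic acid, and DAPT, kept until day 32. DAPT inhibits gamma-secretase and thereby Notch signalling, and it was in the medium at both days compared. Each day had 1 library in each of 3 sequencing lanes. The lane equalled the replicate number, and values below are given in the order of lanes 1, 2, and 3. Nothing in the labels says that the 3 wells came from separate differentiations, so the p-values rest on a spread between libraries that may in part be technical. That spread was estimated over the 18 libraries of days 22 and 32 on all 3 matrices, with a lane effect common to them. All cultures came from 1 cell line.

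In the developing retina, dividing progenitors leave the cell cycle in a fixed order, with ganglion cells, horizontal cells, and cones among the first neurons and rods, bipolar cells, and Müller glia later. Notch signalling keeps progenitors dividing, and its loss is followed by a burst of proneural basic helix-loop-helix factors, then by fate factors such as POU4F2 in ganglion cells and OTX2, CRX, and PRDM1 in photoreceptor precursors. Opsins and the other proteins of phototransduction follow much later.

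Between day 22 and day 32, 130 genes rose on LN523. Among them were RBP3 and PRDM1 of photoreceptor precursors, the proneural factors ATOH7, HES6, NEUROD1, and INSM1, the Notch ligand DLL4, the ganglion cell factor POU4F2, and genes of axons and synapses such as STMN2 and CPLX2. Of 42336 genes tested, 139 (0.328%) differed at an adjusted p under 0.05, with 130 (0.307%) higher and 9 (0.0213%) lower at day 32, and 1744 had an unadjusted p under 0.05. The counts below refer mostly to the 16483 genes with a mean of at least 1 CPM (counts per 1000000 counts) at day 22 or day 32, of which 128 (0.777%) were called higher and 8 (0.0485%) lower. Over those genes the median log2 fold change was -0.00137. The genes called higher had log2 fold changes from 0.91 to 7.56, with a median of 3.18, and 53 of the 130 had a mean under 1 CPM at day 22. In 115 of the 130, all 3 day 32 libraries lay above all 3 day 22 libraries. Such a gap was seen in 5.51% of the genes at 1 CPM or more, and the opposite gap in 3.62%. The 130 were called from the same libraries, which favours such a gap, so the comparison is no separate support for the calls. For genes higher or lower in all 3 lanes, which need not show such a gap, the share over all genes is not given here. Counts of such genes in the lists below therefore stand without a background and only describe the members. For calls, the background of every list below is the share called at 1 CPM or more, 0.777% higher and 0.0485% lower. At these shares, 0 or 1 calls do not set a list apart. The lists were chosen with earlier results of these data known, so a larger share in a list is no test of it. In bulk libraries, more cells of a type and more RNA per cell cannot be told apart.

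The number of genes past the threshold depended strongly on how the spread was estimated. edgeR's usual quasi-likelihood fit drew the spread of each gene toward a trend with a weight of 24.8 prior degrees of freedom. With bias-adjusted deviances, an alternative chosen after seeing the data, the weight was 9.05 and 65 genes were called, 62 of them among the 139. Adding a filter on low counts gave a weight of 4.5 and 28 calls, 27 of them higher, and these 28 were all among the 139. The filter in the usual fit left 0 calls in edgeR, with a lowest adjusted p of 0.079 and 1330 genes at an unadjusted p under 0.05, while DESeq2 called 285 genes without that filter, 120 of them among the 139. In data simulated without lane effects, both tools called more unchanged genes than the threshold allows, so a call near the threshold is uncertain. The error rate in the real libraries, which differ by lane, was not measured by this. Without lane as a block in the model, 49 genes were called, all among the 139. Leaving out single LN523 libraries gave between 23 calls, without day 22 lane 1, and 217 calls, without day 22 lane 2. All 139 kept their sign in each of these 6 fits, and 22 kept their call in all of them: the members of the gene lists PRDM1, RBP3, CDHR1, NEUROD1, HES6, ATOH7, INSM1, DLL4, POU4F2, STMN2, CPLX2, CRYBB1, CRYBB2, and KRT17, and also VXN, PRDM8, MIR124-1HG, ST18, KLHL35, WDR72, C1QL1, and SEPTIN4. Of these 22, PRDM1, RBP3, CDHR1, INSM1, POU4F2, KRT17, and the last 8 named were among the 28 as well.

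The libraries of 1 day were not alike. Day 22 lane 2 stood apart, with a correlation of 0.894 and 0.919 to the other day 22 libraries over 16093 genes, against 0.973 between those. It and day 32 lane 2 held the highest summed levels of the surface epithelium list (1954, 3982, and 1875 CPM at day 22 and 889.9, 3883, and 1654 CPM at day 32 over 20 genes) and of the mesenchyme list (2697, 6257, and 3335 CPM at day 22 and 3649, 11697, and 3312 CPM at day 32 over 15 genes), and the lowest of the retinal progenitor list. At day 32, lane 3 was the lowest library in 93 of the 128 genes called higher, against 36.3% of all genes at 1 CPM or more, and the median log2 ratio of day 32 to day 22 over the 128 was 3.67 in lane 1, 3.00 in lane 2, and 2.24 in lane 3. The part of these differences in the results was not tested. PAX6, RAX, SIX6, and LHX2, defining genes of retinal progenitors, were found in all 6 libraries.

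**Figure D1:**
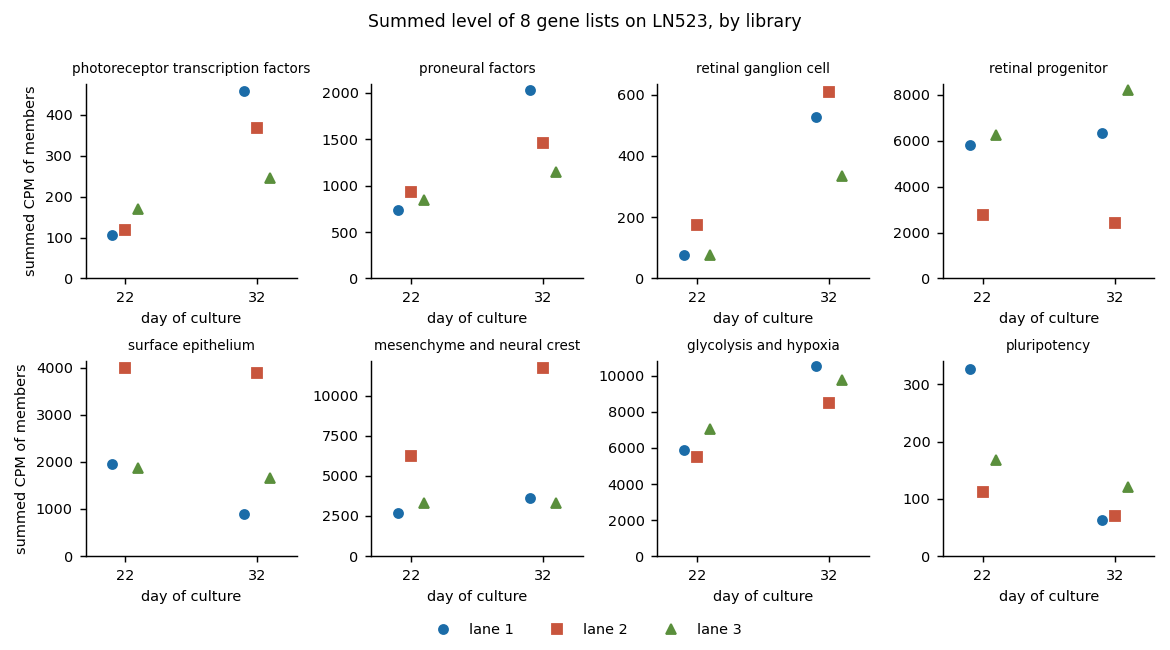
Summed level, in CPM, of the tested members of 8 gene lists on LN523 (vertical axes, from 0) at day 22 and day 32, with a symbol for each of the 3 sequencing lanes, set side by side. The photoreceptor factor, proneural, and ganglion cell sums are higher at day 32 in all 3 lanes, with the smallest step in lane 3, and lane 2 has the highest epithelial and mesenchymal sums at both days.

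Of the 10 transcription factors of photoreceptors, all tested, PRDM1, RORB, THRB, and CRX rose and none fell. Called higher were 0.307% of all genes and 0.777% of those at 1 CPM or more. The list was chosen with earlier results of these data known, so the comparison is no test of it. The median log2 fold change of the 9 members at 1 CPM or more was 1.48. PRDM1, which steers OTX2-positive precursors toward photoreceptors and away from bipolar cells, was at 1.29, 2.59, and 0.467 CPM at day 22 and 36.4, 25.7, and 5.29 CPM at day 32. It was low in all day 22 libraries and high in lanes 1 and 2 at day 32, with lane 3 between them (log2 fold change 3.92, standard error 0.63, adjusted p = 0.00106). RORB, a nuclear receptor needed for rod fate, was at 4.67, 25.9, and 39 CPM at day 22 and 109, 107, and 75.7 CPM at day 32. Its groups did not overlap, and day 22 lane 1 was far below the other day 22 libraries (log2 fold change 2.15, standard error 0.40, adjusted p = 0.00482). THRB, the thyroid hormone receptor that specifies red and green cones, was at 14.2, 47, and 40.1 CPM at day 22 and 115, 84.6, and 90.4 CPM at day 32, again without overlap (log2 fold change 1.56, standard error 0.35, adjusted p = 0.0346).

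CRX (ENSG00000105392, chr19:47819779-47843330, plus strand), the homeobox factor that activates most photoreceptor genes, was at 8.05, 2.4, and 4.9 CPM at day 22 and 28.1, 36.4, and 5.71 CPM at day 32. Lanes 1 and 2 were higher at day 32, whereas lane 3 was nearly level and its day 32 library lay below day 22 lane 1, so the groups overlapped (log2 fold change 2.20, standard error 0.51, adjusted p = 0.0411). The call of CRX was lost in 5 of the 6 fits that each left out 1 library, all but that without day 32 lane 3, and its adjusted p reached 0.723. RORB lost its call without day 22 lane 1, and THRB lost it in 4 of the 6 fits, all but those without day 22 lane 2 or day 32 lane 3. OTX2, which lies upstream of CRX and PRDM1, was at 43.9, 6.53, and 17 CPM at day 22 and 104, 51.6, and 25.8 CPM at day 32 and just missed the threshold (log2 fold change 1.48, standard error 0.35, adjusted p = 0.0547). NRL, the rod determinant, was at 1.62, 1.71, and 1.11 CPM at day 22 and 3.13, 2.72, and 2.81 CPM at day 32, and its log2 fold change of 1.02 (adjusted p = 1) did not pass. NR2E3, the rod factor downstream of NRL, stayed under 1 CPM in every library. RXRG, MEF2D, and SALL3 did not pass either, with log2 fold changes of 0.67, 0.53, and -0.78. DESeq2 called 3 of the 10, namely CRX, PRDM1, and RORB, and with 1 library left out between 1 and 5 of the 10 were called, the fewest without day 22 lane 1 and the most without day 32 lane 3. Without lane as a block only RORB was called, with PRDM1 at an adjusted p of 0.0517, and with bias-adjusted deviances only PRDM1. CRX also lost its call with RLE scaling (adjusted p = 0.0509) and with all 27 libraries (adjusted p = 0.0822).

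The 250 bases before the RefSeq start of CRX are shown because CRX and OTX2 bind a shared core, TAATCC or GGATTA on the other strand, and CRX is the called factor whose own promoter holds it. The stretch lies at chr19:47821687-47821936 of GRCh38.p14, plus strand, and the 2 matches stand in capitals, the first 164 bases and the second 85 bases before the start.
CRX: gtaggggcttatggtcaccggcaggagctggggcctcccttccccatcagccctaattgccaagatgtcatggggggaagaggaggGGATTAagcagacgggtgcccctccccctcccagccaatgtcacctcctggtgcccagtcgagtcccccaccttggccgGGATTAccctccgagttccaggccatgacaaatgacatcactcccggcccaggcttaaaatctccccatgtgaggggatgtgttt
Both matches read GGATTA. Either form of the core was present before at least one annotated start in 6.90% of 27305 genes in the promoter table, in 5.78% of the 12084 genes with a window and at least 1 CPM, in 9 of 89 genes called higher, and in 13 of 43 tested members of the 3 photoreceptor lists. Among the 6 called members of those lists with a window, CRX, PRDM1, THRB, RORB, IMPG2, and CDHR1, only CRX held it. A match of 6 letters describes the sequence and is no evidence of binding.

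Among 20 genes of photoreceptor outer segments, matrix, and cell structure, RBP3, CDHR1, IMPG2, and AIPL1 rose and none fell, and 10 of the 13 members at 1 CPM or more were higher in all 3 lanes (median log2 fold change 0.88). RBP3 (ENSG00000265203, chr10:47348363-47357881, plus strand) encodes the retinoid-binding protein of the matrix between photoreceptors and pigment epithelium. It was at 0.596, 1.81, and 0.0583 CPM at day 22 and 44.7, 50.3, and 4.79 CPM at day 32. Every day 32 library exceeded every day 22 library, but lane 3 reached a far lower level than the others (log2 fold change 5.36, standard error 0.75, adjusted p = 0.000283).

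CDHR1, a cadherin at the base of the outer segment, was at 2.86, 0.44, and 0.117 CPM at day 22 and 20, 11, and 2.36 CPM at day 32. All 3 lanes rose, although day 22 lane 1 lay above day 32 lane 3 (log2 fold change 3.63, standard error 0.59, adjusted p = 0.00131). IMPG2, a proteoglycan of the interphotoreceptor matrix, was at 0.858, 1.44, and 1.23 CPM at day 22 and 12.3, 15.4, and 2.24 CPM at day 32, with no overlap and the smallest rise in lane 3 (log2 fold change 2.95, standard error 0.57, adjusted p = 0.00809). AIPL1, the chaperone of the rod and cone phosphodiesterase, was lower still, at 0.143, 0.147, and 0.0583 CPM at day 22 and 1.44, 4.66, and 0.189 CPM at day 32 (log2 fold change 3.80, standard error 0.89, adjusted p = 0.0467). IMPG2 lost its call without day 22 lane 1, day 32 lane 1, or day 32 lane 2, and AIPL1 in all of the 6 fits but that without day 32 lane 3. CRB1, a polarity protein already at 211 ± 174 CPM (SD, n = 3) at day 22, and EYS had log2 fold changes of 1.25 (adjusted p = 0.211) and 1.48 (adjusted p = 0.436). DESeq2 called 5 of the list, EYS beside the 4. Without lane as a block, 2 were called. RP1, PRPH2, IMPG1, and MPP4 stayed under 1 CPM in every library.

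Of 27 phototransduction genes tested, RCVRN alone passed, and the median log2 fold change of the 12 at 1 CPM or more was 0.07. RCVRN, which encodes recoverin, a calcium sensor of rods and cones, was at 0.191, 0.22, and 0 CPM at day 22 and 4.57, 2.58, and 0.189 CPM at day 32. It appeared in lanes 1 and 2 at day 32, whereas day 32 lane 3 was no higher than 2 of the day 22 libraries (log2 fold change 4.00, standard error 0.93, adjusted p = 0.0428). Its call, too, was lost in all of these fits but that without day 32 lane 3. PDE6H, the inhibitory subunit of the cone phosphodiesterase, had 0 counts in all day 22 libraries and was at 0.544, 0.384, and 0.0472 CPM at day 32 (adjusted p = 0.111). DESeq2 called it, and also PDE6A, which had counts in day 32 lane 3 alone. CNGA3, a subunit of the cone channel, was at 0, 0.0978, and 0.175 CPM at day 22 and 1.65, 1.87, and 0.519 CPM at day 32 (log2 fold change 3.52, standard error 1.12, adjusted p = 0.379). The rod genes GNAT1, PDE6A, PDE6G, and SAG were each under 0.5 CPM in every library, and SAG had no count in any of the 6.

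**Figure D2:**
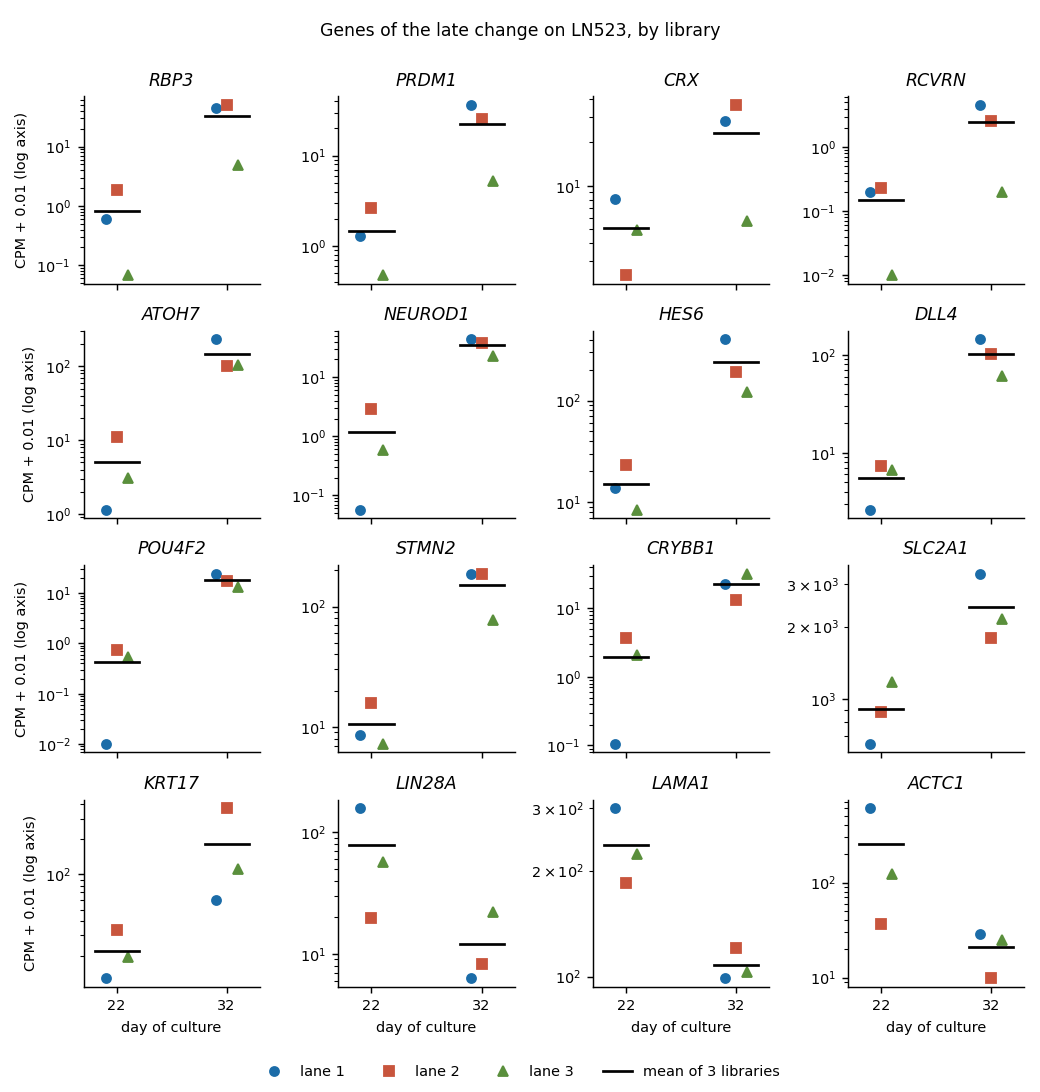
Levels of 16 genes in the 6 LN523 libraries, as CPM plus 0.01 on log axes, against the day of culture. Symbols, set side by side, mark the 3 lanes and black bars the mean of 3 libraries. All genes but CRX, RCVRN, and LIN28A have separate day 22 and day 32 values, and lane 3 is the lowest library at day 32 for the photoreceptor genes.

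Proneural and neurogenic factors were the list with the most calls, 8 of 15, against 0.777% of genes at 1 CPM or more called higher. Of 15 members, all tested, ATOH7, NEUROG2, NEUROD1, NEUROD4, OLIG2, INSM1, HES6, and BHLHE22 rose, none fell, and all 13 at 1 CPM or more had a log2 fold change above 0 (median 2.17). ATOH7 (ENSG00000179774, chr10:68230595-68232113, minus strand), the factor that makes progenitors competent to become ganglion cells, was at 1.14, 11, and 3.09 CPM at day 22 and 232, 102, and 105 CPM at day 32. Its day 32 libraries all lay far above the day 22 range (log2 fold change 5.08, standard error 0.72, adjusted p = 0.000283). HES6, an antagonist of HES1 that promotes neuronal differentiation, was at 13.7, 23, and 8.4 CPM at day 22 and 403, 190.3, and 122 CPM at day 32 and rose in every lane (log2 fold change 3.93, standard error 0.54, adjusted p = 0.000267). INSM1, a zinc-finger factor of cells leaving the cell cycle, was at 9.29, 7.73, and 19.1 CPM at day 22 and 64.8, 33.3, and 52.4 CPM at day 32 (log2 fold change 2.10, standard error 0.31, adjusted p = 0.000343).

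NEUROD1, which acts in photoreceptor and amacrine precursors, was at 0.0477, 2.84, and 0.583 CPM at day 22 and 43.8, 38.4, and 22.7 CPM at day 32 (log2 fold change 5.10, standard error 0.86, adjusted p = 0.00182). It was nearly absent from day 22 lane 1 and present in all day 32 libraries. NEUROG2, NEUROD4, OLIG2, and BHLHE22 had log2 fold changes of 4.11 (adjusted p = 0.00577), 4.65 (adjusted p = 0.0102), 4.24 (adjusted p = 0.00545), and 2.17 (adjusted p = 0.0195). NEUROG1 and GADD45G did not pass (3.42 and 1.16 on the log2 scale), and SOX4, SOX11, and BTG2, which were abundant at both days, stood at 0.34, 0.34, and 0.16. With 1 library left out at a time, 4 to 9 members were called, the fewest without day 22 lane 1, and 6 were called without lane as a block.

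In the Notch pathway, 3 of 16 members rose and none fell, with a median log2 fold change of 0.04 over all 16. The ligands DLL4 and DLL3 and the glycosyltransferase MFNG, which modifies Notch receptors, were the 3. DLL4 was at 2.62, 7.38, and 6.65 CPM at day 22 and 145, 101, and 60.2 CPM at day 32, with every lane rising (log2 fold change 4.04, standard error 0.59, adjusted p = 0.000343). DLL3, a ligand that inhibits Notch within the same cell, was at 6.2, 5.92, and 7.58 CPM at day 22 and 46.9, 40.5, and 18.3 CPM at day 32 (log2 fold change 2.30, standard error 0.45, adjusted p = 0.00822), and MFNG at 3.38, 0.733, and 4.08 CPM at day 22 and 27.7, 20.7, and 6.61 CPM at day 32 (log2 fold change 2.71, standard error 0.60, adjusted p = 0.0249). All 3 had separate day 22 and day 32 libraries. The receptors NOTCH1, NOTCH2, and NOTCH3 had log2 fold changes of 0.19, 0.04, and 0.10, and the ligands DLL1, JAG1, and JAG2 of 0.03, -0.07, and -0.03. Of the target genes, HES1 was at 91.7, 64.8, and 79 CPM at day 22 and 75.2, 58.1, and 100.3 CPM at day 32 (log2 fold change -0.02), and HES5 was at 1.91, 0.293, and 2.33 CPM at day 22 and 8.14, 5.21, and 2.46 CPM at day 32 without passing (log2 fold change 1.98, standard error 0.59, adjusted p = 0.256). HEY1, NRARP, and LFNG had log2 fold changes of -0.73, 0.58, and -0.06, none past the threshold. Bias-adjusted deviances, chosen after seeing the data, left 1 of the 3 calls, and so did leaving out day 22 lane 1 or day 32 lane 2.

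The ganglion cell list had the highest median of the lists. STMN2, GAP43, ELAVL3, ELAVL4, and NEFL in it are genes of axons or postmitotic neurons and do not mark ganglion cells alone. Of 20 members, 7 rose, none fell, and 14 of the 16 at 1 CPM or more were higher in all 3 lanes (median log2 fold change 2.37). POU4F2 (ENSG00000151615, chr4:146638893-146642474, plus strand), the factor that fixes ganglion cell fate downstream of ATOH7, was at 0, 0.733, and 0.525 CPM at day 22 and 24.5, 17.8, and 13.4 CPM at day 32 and absent from day 22 lane 1 (log2 fold change 5.48, standard error 0.93, adjusted p = 0.00182). STMN2, a microtubule regulator of growing axons, was at 8.48, 15.8, and 7.2 CPM at day 22 and 187, 188, and 77.2 CPM at day 32 (log2 fold change 3.70, standard error 0.60, adjusted p = 0.00131). GAP43, a growth cone protein, was at 6.93, 12, and 10.9 CPM at day 22 and 54.7, 46.4, and 66.1 CPM at day 32, with lane 3 the highest library at day 32 (log2 fold change 2.48, standard error 0.43, adjusted p = 0.00221). The RNA-binding proteins ELAVL3 and ELAVL4 of postmitotic neurons, the light neurofilament NEFL, and EBF1 rose by 4.54, 4.49, 3.71, and 3.24 (adjusted p = 0.00221, 0.01, 0.00733, and 0.0406). ISL1, NEFM, SNCG, and DCX did not pass, with log2 fold changes of 1.68, 2.81, 1.55, and 2.25, and POU4F1 stayed under 1 CPM. The surface protein THY1 had a log2 fold change of -0.56 (adjusted p = 1). Without day 22 lane 1, 2 of the 20 were called, and without day 22 lane 2, 10 were. Without day 22 lane 3 and without lane as a block, the number was 4, and with bias-adjusted deviances it was 2.

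Of 23 presynaptic and ribbon synapse genes tested, SYP and CPLX2 rose and none fell (median log2 fold change 0.80 over 21 at 1 CPM or more). CPLX2, a complexin that clamps vesicle fusion, was at 0.191, 1.32, and 0.233 CPM at day 22 and 29.6, 32.8, and 11.2 CPM at day 32 (log2 fold change 5.33, standard error 0.80, adjusted p = 0.000456). SYP, the vesicle protein synaptophysin, was at 0.763, 3.03, and 0.758 CPM at day 22 and 24.5, 28.8, and 10.7 CPM at day 32 (log2 fold change 3.78, standard error 0.65, adjusted p = 0.0019). For each of these genes the day 32 libraries lay above the day 22 libraries. UNC13A and SNAP25, which prime and fuse vesicles, also had separate groups but did not pass, at log2 fold changes of 2.90 (adjusted p = 0.0548) and 1.68 (adjusted p = 0.162). DESeq2 called UNC13A (adjusted p = 0.0359) beside SYP and CPLX2. Without day 22 lane 2, 6 of the 23 were called, and without day 22 lane 1 only 1.

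For horizontal and amacrine cells, CALB2, the calcium buffer calretinin, was the 1 of 16 members that rose, at 0.0477, 0.342, and 0.0583 CPM at day 22 and 1.13, 2.69, and 1.79 CPM at day 32 (log2 fold change 4.02, standard error 0.91, adjusted p = 0.035). ONECUT1, ONECUT2, and ONECUT3, factors of horizontal cell genesis, had no overlap between days but did not pass, at 4.21 (adjusted p = 0.0676), 3.57 (adjusted p = 0.132), and 2.64 (adjusted p = 0.625) on the log2 scale. The median over 14 members was 0.41. For bipolar cells and Müller glia, VSX1, a factor of cone bipolar cells, was the 1 of 14 that rose, at 0.62, 0.513, and 0.175 CPM at day 22 and 9.49, 3.21, and 7.01 CPM at day 32 (log2 fold change 4.01, standard error 0.81, adjusted p = 0.0125), and the median over 10 members was -0.04. DKK3, CLU, and LHX4 did not pass (1.11, 0.59, and 1.34 on the log2 scale). Each of these 2 calls was lost in 4 of the 6 fits with 1 library left out, both of them without day 22 lane 1, day 22 lane 3, or day 32 lane 3. Without day 22 lane 2, 3 horizontal and amacrine genes were called.

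The genes of retinal progenitors were abundant at both days, and none of 15 passed in edgeR (3 at an unadjusted p under 0.05, and 0 calls in DESeq2), with a median log2 fold change of 0.33. PAX6 and RAX, factors of the eye field, had log2 fold changes of 0.21 and -0.09, and SIX6 and HMX1 of 0.43 and 0.65. ZIC1 was at 6.86, 30.1, and 33.7 CPM at day 22 and 187, 33.4, and 125 CPM at day 32 and missed the threshold (log2 fold change 1.84, standard error 0.46, adjusted p = 0.0774), as did FGF19 (log2 fold change 1.57, standard error 0.41, adjusted p = 0.122). ZIC1 was called when either of the lane 2 libraries was left out. Cell cycle genes did not pass either (0 of 30 in edgeR and in DESeq2, 3 at an unadjusted p under 0.05), and 21 of the 30 had a log2 fold change above 0, with a median of 0.23 and a range from -0.54 to 0.64. TOP2A, the topoisomerase of dividing cells, was at 242, 411, and 559 CPM at day 22 and 475, 565, and 681 CPM at day 32, and PLK1, CCNA2, and TPX2 had log2 fold changes of 0.64, 0.56, and 0.50.

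Pigment epithelium genes gave 0 calls among 18 members in edgeR and in DESeq2 (5 at an unadjusted p under 0.05, median log2 fold change 0.02 over 14). MITF, the master factor of pigment cells, had a log2 fold change of 0.05. TYRP1, a melanosome enzyme, was at 90.9, 55.2, and 39.1 CPM at day 22 and 19.1, 16.6, and 12.2 CPM at day 32, and all day 22 libraries lay above day 32 without passing (log2 fold change -1.94, standard error 0.57, adjusted p = 0.224). TYR, the rate-limiting enzyme of melanin synthesis, had a log2 fold change of 0.90, and GPNMB, a melanosome glycoprotein, one of 1.47. Neither passed, though GPNMB was called when day 32 lane 2 was left out. TTR was found in day 32 lane 1 only, at 5.44 CPM. Of 12 forebrain and optic stalk genes none passed in either tool (2 at an unadjusted p under 0.05), and the median over 8 was -0.23. EMX2, DLX1, and DLX2 had log2 fold changes of -1.46, 1.48, and -0.65. VAX1 was found at over 1 CPM in day 22 lane 1 alone.

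Of 18 lens genes, the crystallins CRYBB2, CRYBB1, and CRYBA4 rose and none fell (median log2 fold change 0.98 over 13). CRYBB1 was at 0.0953, 3.72, and 2.04 CPM at day 22 and 22.6, 13.3, and 31.8 CPM at day 32 (log2 fold change 4.40, standard error 0.71, adjusted p = 0.00131), and CRYBA4 at 0.334, 1.03, and 1.46 CPM at day 22 and 6.74, 4.34, and 6.75 CPM at day 32 (log2 fold change 3.35, standard error 0.70, adjusted p = 0.0161). CRYBB2 was at 0, 0.147, and 0 CPM at day 22 and 4.61, 3.7, and 2.03 CPM at day 32 (log2 fold change 6.64, standard error 1.01, adjusted p = 0.000515), although 26.5% of its exonic length is shared with another gene on the same strand and a pseudogene copy exists, so its count is uncertain. All 3 had separate groups. CRYAA, CRYBA1, and CRYBB3 did not pass, with log2 fold changes of 2.18 (adjusted p = 0.0724), 2.88 (adjusted p = 0.0547), and 3.12 (adjusted p = 0.0838). The lens genes BFSP2 and MIP were at or under 1.02 CPM, and FOXE3, a factor of lens epithelium, was at 2.19, 0.587, and 0.117 CPM at day 22 and 0, 0.494, and 0 CPM at day 32 and did not pass (adjusted p = 1). The summed level of the lens list was 60.7 CPM at day 22 and 61.2 CPM at day 32 in lane 2. DESeq2 called 5 of the 18, CRYBA1 and BFSP2 beside the 3, and 2 to 6 were called with 1 library left out at a time, the most without day 32 lane 2. Without lane as a block, 1 was.

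KRT17 (ENSG00000128422, chr17:41619442-41624842, minus strand), a keratin of stressed and basal epithelium, had the lowest p of the lists and was the 1 of 20 surface epithelium genes that rose. It was at 12.9, 33.6, and 19.7 CPM at day 22 and 60.8, 368, and 111 CPM at day 32, so every lane rose, from unequal starts, and lane 2 reached the highest level (log2 fold change 2.82, standard error 0.32, adjusted p = 3.73e-06). Reads of its near-identical pseudogenes may be counted with it. Most of that list had values of the other sign: 14 of the 19 members at 1 CPM or more had a log2 fold change below 0 (median -0.56), 9 were lower in all 3 lanes, and none passed as lower. Without day 32 lane 2, 3 of the 20 were called. EPCAM, the epithelial adhesion molecule, was at 33.1, 111, and 41.5 CPM at day 22 and 5.26, 76.1, and 23.4 CPM at day 32 (log2 fold change -1.06, standard error 0.38, adjusted p = 0.614), and KRT18 had a log2 fold change of -0.57. Basal keratins other than KRT17 were low, with KRT14 under 1 CPM in every library and KRT5 at 0.62, 0.0978, and 1.11 CPM at day 22 and 0.914, 5.13, and 0.685 CPM at day 32. Mesenchyme and neural crest genes gave 0 calls among 15 tested in edgeR and in DESeq2 (3 at an unadjusted p under 0.05), with a median of 0.43. DCN and LUM, proteoglycans of fibroblasts, were at 5.62, 83.4, and 22.1 CPM at day 22 and 10.3, 249, and 26.3 CPM at day 32 and at 7.86, 70.4, and 18.6 CPM at day 22 and 31.2, 153, and 20.8 CPM at day 32, highest in lane 2 at both days. PDGFRB and COL1A2 had log2 fold changes of 0.91 and 0.51.

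Among 19 genes of glycolysis and the hypoxia response, SLC2A1 and VEGFA rose. Of the 17 members at 1 CPM or more, 16 had a log2 fold change above 0 and 13 were higher in all 3 lanes (median 0.67). SLC2A1, the glucose transporter GLUT1, was at 651, 883, and 1182 CPM at day 22 and 3316, 1801, and 2149 CPM at day 32 (log2 fold change 1.44, standard error 0.32, adjusted p = 0.0276), and VEGFA, an angiogenic factor induced by hypoxia, at 130.5, 48, and 115 CPM at day 22 and 294, 192, and 147 CPM at day 32 (log2 fold change 1.15, standard error 0.26, adjusted p = 0.0396). Neither gene's groups overlapped. DESeq2 called neither. Both calls were also lost with bias-adjusted deviances, without lane as a block, and without day 22 lane 1, day 32 lane 1, or day 32 lane 2. BNIP3, HK2, and LDHA had higher values in every lane but did not pass, at log2 fold changes of 1.14 (adjusted p = 0.183), 0.81 (adjusted p = 0.253), and 0.67 (adjusted p = 0.712). BSG, which carries lactate transporters to the membrane and binds a cone survival factor, was at 599.7, 516, and 639.6 CPM at day 22 and 698, 642, and 641 CPM at day 32 (log2 fold change 0.18, standard error 0.18, adjusted p = 1).

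The cells' own laminin genes were also measured. Of 24 genes of laminins, basement membrane, and their receptors, LAMB3 rose and LAMA1 fell (median log2 fold change -0.07). LAMA1, the alpha chain of embryonic laminin, was at 301, 184, and 223 CPM at day 22 and 98.8, 121, and 103 CPM at day 32 and lower in every day 32 library (log2 fold change -1.13, standard error 0.23, adjusted p = 0.0143). LAMB3, the beta chain of epithelial laminin 332, was at 4.1, 30.4, and 5.83 CPM at day 22 and 12.6, 146, and 23.1 CPM at day 32, with the lane 2 libraries far above the others and the groups overlapping (log2 fold change 2.03, standard error 0.43, adjusted p = 0.018). LAMA3 and LAMA2 did not pass (1.09 and 1.10 on the log2 scale). The chains of laminin 523, LAMA5, LAMB2, and LAMC3, had log2 fold changes of -0.08, 0.41, and 0.76, at adjusted p-values of 1. Both calls were lost with bias-adjusted deviances and without day 22 lane 1, and 4 of the 24 genes were called without day 22 lane 2.

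No gene of the pathways of retinoic acid or CNTF, both in the medium, passed. Of all genes at 1 CPM or more, 0.777% were called higher and 0.0485% lower, so 0 calls in lists this short is the usual outcome and does not set them apart. Among 16 genes of retinoic acid response and metabolism, 0 were called in edgeR and in DESeq2, 6 had an unadjusted p under 0.05, and the median log2 fold change was 0.12. STRA6, the retinol transporter, was at 23.6, 118, and 57.7 CPM at day 22 and 170.2, 105, and 153 CPM at day 32 (adjusted p = 0.113). CRABP1 and ALDH1A3 had log2 fold changes of 0.85 and -1.33. Without day 22 lane 2, 4 of the 16 were called. Among 13 genes of CNTF, gp130, and STAT3 signalling, 0 were called by either tool, 2 had an unadjusted p under 0.05, and the median was 0.24. EDN2, CNTFR, JUNB, and SOCS2 had log2 fold changes of 2.39, 0.57, 0.63, and -0.60.

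Genes of cilium transport lay near the median of all genes, with 0 of 25 called by either tool, 1 at an unadjusted p under 0.05, and a median log2 fold change of -0.01. LCA5, a ciliary protein of photoreceptors, was at 47.6, 35.9, and 54.7 CPM at day 22 and 91, 85.6, and 57.5 CPM at day 32 without passing (log2 fold change 0.77, standard error 0.23, adjusted p = 0.224). RPGRIP1L, ARL6, and BBS5 had log2 fold changes of -0.42, 0.52, and 0.32. Of 17 cholesterol synthesis genes, INSIG1, the sterol sensor that restrains SREBP, rose. It was at 102, 106, and 94.5 CPM at day 22 and 179, 256, and 146 CPM at day 32 (log2 fold change 0.91, standard error 0.21, adjusted p = 0.0411), and 15 of the 17 had a log2 fold change above 0 (median 0.20), among them IDI1 and SREBF2 at 0.36 and 0.27. The call of INSIG1 was lost in all of the 6 fits with 1 library left out but that without day 32 lane 3. Stress and immediate early genes gave 0 calls of 15 by either tool (2 at an unadjusted p under 0.05, median 0.10), with DDIT4, FOS, ASNS, and ATF3 at 0.94, -0.64, 0.50, and -0.66.

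**Figure D3:**
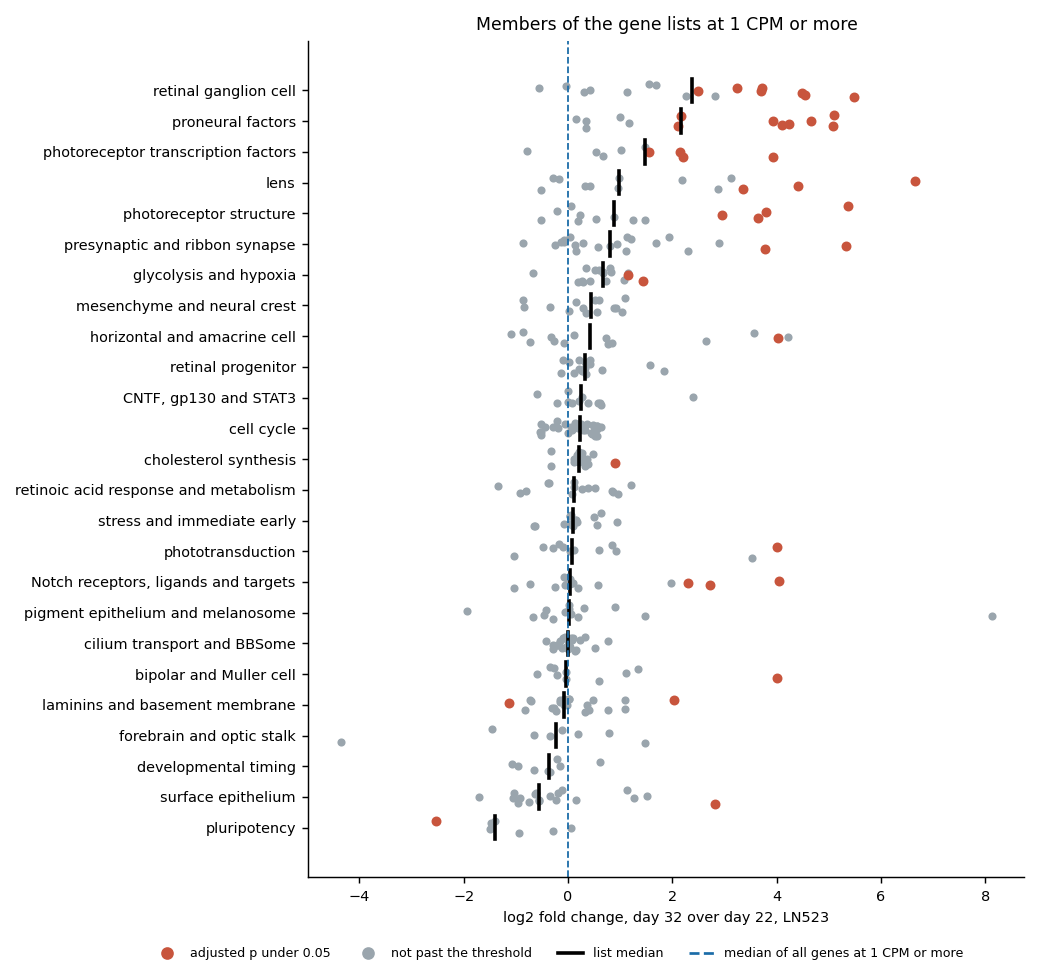
Log2 fold change from day 22 to day 32 on LN523 (horizontal axis) of each list member with at least 1 CPM at either day, for the 25 gene lists (vertical axis, in order of their medians). Red points passed an adjusted p of 0.05, grey points did not, black bars are list medians, and the dashed line is the median of all 16483 genes at 1 CPM or more. The ganglion cell, proneural, and photoreceptor factor lists lie to the right and the pluripotency list to the left.

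The 9 genes called lower included 8 at 1 CPM or more, and LIN28A, LAMA1, CCL2, SKIDA1, EDN3, ACTC1, SPON1, and ABCG2 were these 8. LIN28A, the RNA-binding protein that blocks let-7 maturation in stem cells and early progenitors, was at 158, 19.7, and 57.5 CPM at day 22 and 6.27, 8.18, and 21.9 CPM at day 32. Each lane fell, lane 1 the most, but day 22 lane 2 lay below day 32 lane 3 (log2 fold change -2.53, standard error 0.47, adjusted p = 0.0056). It was the 1 called of 11 pluripotency genes (median -1.40 over 7 at 1 CPM or more). SALL4, ZFP42, and L1TD1 did not pass, at log2 fold changes of -1.48 (adjusted p = 0.154), -1.40 (adjusted p = 0.703), and -1.49 (adjusted p = 0.855). POU5F1 was at 1.72, 2.32, and 1.23 CPM at day 22 and 1.17, 2.47, and 1.37 CPM at day 32, and NANOG under 0.5 CPM in all 6 libraries. Of 9 genes of developmental timing, 0 passed in edgeR and in DESeq2 (3 at an unadjusted p under 0.05, median -0.37), with TRIM71, LIN28B, HMGA1, and IGF2BP3 at -1.07, -0.96, -0.66, and -0.35. Without day 22 lane 2, 3 of the 9 were called. The call of LIN28A was lost when either of the lane 1 libraries was left out.

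ACTC1, the cardiac alpha actin, was at 605, 37, and 124 CPM at day 22 and 28.9, 9.82, and 24.8 CPM at day 32 (log2 fold change -3.21, standard error 0.73, adjusted p = 0.034), and day 22 lane 1 alone accounted for most of its day 22 mean. CCL2, a chemokine, was at 301, 92.8, and 156 CPM at day 22 and 39.9, 30.7, and 125 CPM at day 32 (log2 fold change -1.69, standard error 0.33, adjusted p = 0.00805). SKIDA1 was at 177, 63.5, and 103 CPM at day 22 and 42.6, 38.5, and 68.3 CPM at day 32 (log2 fold change -1.19, standard error 0.25, adjusted p = 0.0175). The groups of CCL2 and SKIDA1 overlapped through lane 3 at day 32, whereas those of ACTC1 did not. ABCG2, a xenobiotic transporter of stem cells, nearly vanished, from 2.17 ± 0.597 CPM to 0.0706 ± 0.0848 CPM (SD, n = 3; log2 fold change -5.08, standard error 0.95, adjusted p = 0.0056), and was the 1 fall among the 28 genes called after the filter. EDN3, a ligand of neural crest cells, and SPON1, a matrix protein of axon guidance, fell by 2.63 and 1.75 on the log2 scale (adjusted p = 0.0293 and 0.0422). Without day 32 lane 1, none of the 9 falls was called, and without day 22 lane 1, 1 was.

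Of the 126 rises that met the naming rule, those with the highest log2 fold changes started from near 0. They were CRYBB2, DBX1, TNR, CHRNB3, SERPINI2, AMER3, KLHL1, POU4F2, MIR124-1HG, and a gene without a symbol. DBX1, a homeobox factor of interneuron progenitors, had 2 counts in the day 22 libraries together and 211 at day 32, a ratio of 97.1 after scaling to library size (exact 95% interval 26.5 to 807, counting error only). TNR, an extracellular matrix protein of the nervous system, had 2 and 132 counts, a ratio of 60.7 (interval 16.5 to 507). Both intervals take each count as independent and are too narrow if a read pair was counted as 2 reads. KLHL1, a neuronal actin-binding protein, was at 0, 0.147, and 0.0583 CPM at day 22 and 3.57, 4.03, and 2.79 CPM at day 32 (log2 fold change 5.56, standard error 0.95, adjusted p = 0.0019). CHRNB3, a nicotinic receptor subunit, was at 0.0477, 0.0489, and 0 CPM at day 22 and 0.848, 2.3, and 1.98 CPM at day 32 (log2 fold change 5.77, standard error 1.13, adjusted p = 0.00822). SERPINI2 and AMER3 rose by 5.66 and 5.63 (adjusted p = 0.00182 and 0.00966). MIR124-1HG, a host gene of the neuronal miR-124, was at 0.286, 0.44, and 0 CPM at day 22 and 13.1, 13.4, and 3.26 CPM at day 32 (log2 fold change 5.47, standard error 0.83, adjusted p = 0.000474).

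Other called genes were chosen for mention after their values were seen. VXN, which promotes neurogenesis, shared the lowest adjusted p with KRT17 and was at 0.906, 0.782, and 0.758 CPM at day 22 and 57.9, 30.9, and 10.8 CPM at day 32 (log2 fold change 5.06, standard error 0.57, adjusted p = 3.73e-06). PDC, the phosducin of photoreceptors, had 2 counts at day 22 and 370 at day 32, but none in day 32 lane 3. CNTN2, an adhesion molecule of axons, was at 1.24, 18.7, and 7.38 CPM at day 22 and 309, 236, and 135 CPM at day 32 (log2 fold change 4.42, standard error 0.81, adjusted p = 0.00455), and PCBP4, an RNA-binding protein, was already at 60.9 ± 1.9 CPM (SD, n = 3) and reached 186 ± 92.1 CPM (log2 fold change 1.53, standard error 0.26, adjusted p = 0.00182). Neurotransmitter genes were also among the calls: TH, the first enzyme of dopamine synthesis, at 2.56 (adjusted p = 0.034), the dopamine receptor DRD2 at 3.52 (adjusted p = 0.035), the nicotinic subunit CHRNA3 at 1.98 (adjusted p = 0.00809), and thyrotropin-releasing hormone, TRH, at 2.14 (adjusted p = 0.00182). Of the 130 genes called higher, 123 (94.6%) were protein coding, against 85.5% of genes at 1 CPM or more, and 7 were long non-coding RNAs.

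Set against day 2 on the authors' TPM scale, which divides by gene length, the late rise took different forms. Of the 128 genes called higher at 1 CPM or more, 40 had a mean under 1 TPM at both day 2 and day 22, and 55 (43.0%) had a higher mean at day 2 than at day 22, against 33.4% of all genes at 1 CPM or more. The 128 were chosen for day 22 values below those of day 32, which by itself favours a day 22 mean below that of day 2. The 2 shares therefore only describe these genes. In 14 of the 128 the day 2 mean was also above that of day 32. RBP3 was at 0.0626 ± 0.108, 0.793 ± 0.874, and 30.3 ± 22.6 TPM at days 2, 22, and 32 (mean ± SD, n = 3), and ATOH7 at 1.11 ± 0.546, 14 ± 14.7, and 384 ± 193 TPM. Both were far lower at day 2 and day 22 than at day 32. SYP ran through 15.8 ± 6.71, 1.19 ± 1.06, and 15.9 ± 7.08 TPM, and MIR124-1HG through 31.7 ± 3.57, 0.242 ± 0.224, and 9.33 ± 5.44 TPM, so both had lower means at day 22 than at day 2. HES6 went through 45.1 ± 2.46, 30.2 ± 15.5, and 454 ± 277 TPM. LIN28A went from high to low through 3238 ± 134, 79.4 ± 73.4, and 11.7 ± 8.22 TPM, and LAMA1 had its highest mean at day 22, at 34 ± 6.05, 60.2 ± 15.3, and 26.3 ± 3.06 TPM. By the study's methods the day 2 cells were undifferentiated stem cells that had not yet been cultured in the differentiation media. Changes against day 2 were not tested here.

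The late change was also measured on LN323 and LN521, with 3 libraries per day each. On LN323, 10 genes (0.0236%) were called, and on LN521 87 (0.205%). These counts do not show that the matrices differ. The test of the difference itself called 0 genes (0%) between LN523 and LN323 in edgeR, with 587 at an unadjusted p under 0.05, 68 in DESeq2, and 0 with bias-adjusted deviances, and 1 gene (0.00236%) between LN523 and LN521, with 1810 at an unadjusted p under 0.05 and 88 in DESeq2. Of the 130 genes called higher on LN523, 128 had a log2 fold change above 0 on LN323 (median 1.52) and 123 on LN521 (median 1.23), and 5 and 22 of them were called there. The 3 changes share the estimate of spread, and the genes were chosen for their rise on LN523.

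List medians on the 3 matrices, given here for some of the 25 lists, were not tested against each other. For the ganglion cell list the median log2 fold change was 2.37 on LN523, 1.49 on LN323, and 0.29 on LN521. For photoreceptor transcription factors it was 1.48, 0.28, and 0.48, and for proneural factors 2.17, 1.14, and 1.51. For glycolysis and hypoxia it was 0.67, 0.27, and -0.58. LN523 did not have the highest median in every list. In the same order, the lens list stood at 0.98, 1.90, and 0.32, and the mesenchyme list at 0.43, 1.24, and 0.48. The surface epithelium list stood at -0.56, -0.06, and 0.28.

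The gene that differed was KRT17, which rose on LN521 by 5.50, on LN323 by 3.47, and on LN523 by 2.82. The difference of LN523 minus LN521 was -2.68 (standard error 0.43, adjusted p = 0.0168), so its late rise was smaller on LN523. This call was lost without day 32 lane 1, day 22 lane 3, or day 32 lane 3, without lane as a block, with all 27 libraries, with either filter on low counts, and with bias-adjusted deviances, whose lowest adjusted p was 0.483. RBP3 had log2 fold changes of 1.82 on LN323 and 6.03 on LN521, beside 5.36 on LN523, and its difference of LN523 minus LN323 was 3.54 (standard error 0.93, adjusted p = 1). HES6 had 1.29 on LN323 and 2.00 on LN521 and differed from LN323 by 2.64 (standard error 0.69, adjusted p = 1). CRX had 0.64 on LN323 and 0.86 on LN521, and its differences were 1.56 (standard error 0.68, adjusted p = 1) against LN323 and 1.35 (standard error 0.68, adjusted p = 1) against LN521. For the crystallin CRYBB2 the log2 fold changes were 4.95 on LN323 and 0.32 on LN521, with a difference from LN521 of 6.32 (standard error 1.29, adjusted p = 0.194). VEGFA had 0.64 on LN323 and -0.58 on LN521, and its difference from LN521 was 1.73 (standard error 0.37, adjusted p = 0.321). LIN28A and LAMA1 also fell on LN521, with log2 fold changes of -3.06 and -1.15 (adjusted p = 0.000659 and 0.0151), whereas on LN323 neither passed (-2.20 and -0.92).

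**Figure D4:**
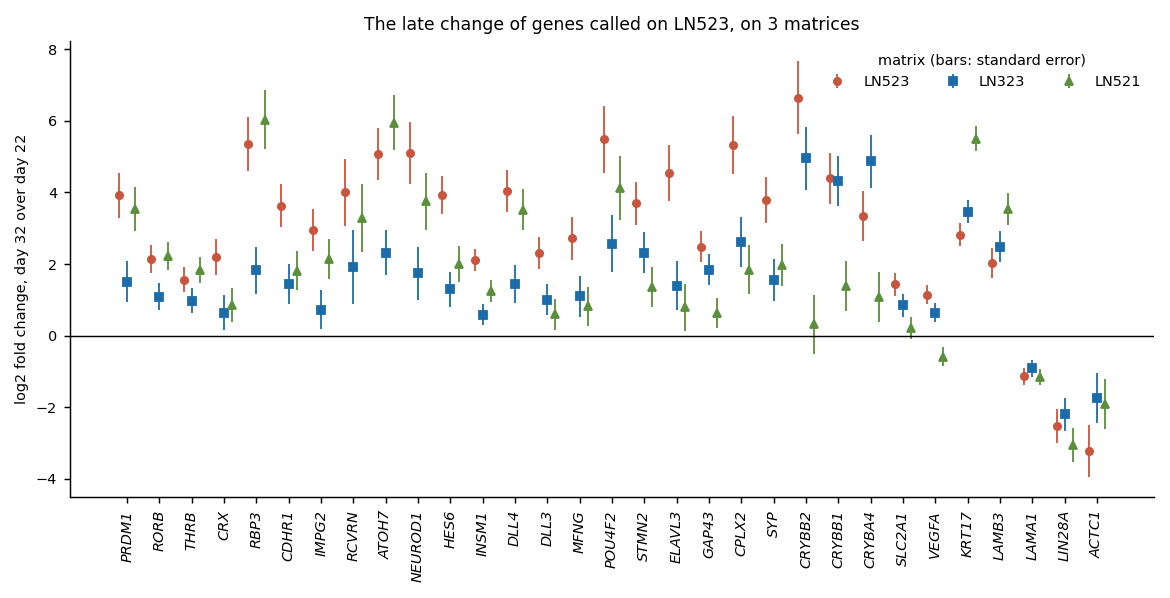
Log2 fold change from day 22 to day 32 (vertical axis) of 31 genes called on LN523 (horizontal axis), on LN523, LN323, and LN521, with bars of 1 standard error from the fit of 18 libraries. All but VEGFA on LN521 have values of the same sign on the 3 matrices, and KRT17 has its lowest value on LN523.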

How the data were processed

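Bulk RNA-seq counts of 27 libraries (3 matrices, days 2, 22, and 32, 3 libraries each) were used. The authors made libraries from total RNA after depletion of ribosomal RNA with a stranded kit, sequenced 150 bp read pairs, trimmed them with cutadapt, aligned them with STAR 2.5.2b to GRCh38 with Ensembl 79, and counted genes with featureCounts 1.5.1. The strand and pair settings are not given in the sources used here, and counts from a gene and an overlapping antisense gene may not be separable. The deposited counts are whole numbers without normalization, with rRNA and mitochondrial genes removed by the authors, and 68.8% of the non-zero counts in the 6 LN523 libraries were even. The authors also deposited TPM, which served here for levels at day 2 and in 2 alternatives. Total counts of the 6 libraries ran from 34767018 to 47340990, which limits the precision of low genes. Intervals cover counting error only, with each count taken as independent.

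The 18 libraries of days 22 and 32 were fitted with edgeR 4.0.16 in R 4.3.3 (TMM, quasi-likelihood F-test, genes with more than 1 count in sum, 6 groups, lane as a block as in the study's methods, 10 residual degrees of freedom, common biological coefficient of variation 46.4%). Benjamini-Hochberg adjustment ran over all genes tested, and a call is an adjusted p under 0.05. CPM are counts per 1000000 after TMM scaling, and the standard error is the log2 fold change divided by the square root of F. The pairing by lane comes from the library labels. Deviations of same-lane LN523 libraries between days correlated with r = 0.466, 0.33, and -0.0191 in lanes 1 to 3 (16093 genes). Between different lanes r ran from -0.57 to 0.413, the latter for day 22 lane 3 and day 32 lane 1. No 2 libraries agreed within counting noise (mean chi-square per gene 47.4 to 236). Differences between matrices were tested as interaction contrasts of the same fit. Symbols and positions came from GENCODE 44, which matched 43052 of 44852 genes, and promoters from RefSeq.

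The 25 gene lists hold 443 different genes, of which 438 were tested, and OPN1LW, OPN1MW, GNAT2, CPLX3, and SOX10 were not analysed here. Values of some list members are not reported here. The genes named are, per list, up to 4 members at 1 CPM or more with the lowest p, genes named in the study, and the 10 largest rises and falls among called genes at 1 CPM or more with the same sign in all 3 lanes. Genes given only with a level or a log2 fold change fill in a list. The members and lists were chosen with earlier results of these data known. On data simulated without lane effects, edgeR and DESeq2 recovered most of the changed genes, but unchanged genes made up a larger share of their calls than the threshold allows. Alternatives were RLE scaling, 2 filters on low counts, DESeq2 1.42.0, limma 3.58.1 on log2 TPM plus 1 or plus 0.1, other sets of libraries, no or another replicate block, leaving out libraries, and, chosen after the data were seen, bias-adjusted deviances.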

Additional observations from a re-analysis of the deposited data

Results flagged for a closer look

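KRT17 stood out because its late change differed between matrices by a test of the difference itself. The log2 fold change from day 22 to day 32 was 2.82 on LN523 and 5.50 on LN521, a difference of LN523 minus LN521 of -2.68 (standard error 0.43, adjusted p = 0.0168) when 42336 genes were tested with edgeR, with 3 libraries per day and matrix. The call was lost without lane as a block, with all 27 libraries, with either filter on low counts, and with bias-adjusted deviances. It was also lost when some single libraries were left out. KRT17 has near-identical pseudogene copies, the lane 2 libraries on LN523 were rich in surface epithelium genes, and the part of either in the difference was not tested.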

How the results depend on the processing

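The 139 calls between day 32 and day 22 on LN523 became 0 with either filter on low counts, 285 with DESeq2, 601 with lane within matrix as the block, 496 and 73 in the 6 LN523 libraries with and without the block, and 1 with limma on log2 TPM plus 1 or plus 0.1, a fall outside the 139. Without a replicate block there were 49 calls. Bias-adjusted deviances, chosen after seeing the data, gave 65 calls, and 28 with the filter. Leaving out libraries gave 23 to 635 calls, the fewest without day 22 lane 1 and the most without lane 2 on all matrices. RLE scaling gave 130 and all 27 libraries 171. The prior degrees of freedom went from 24.8 to 4.34 with the first filter. All 139 kept their sign in the 22 alternatives that gave a value for them, and none was called in each of them.

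For LN523 against LN323, the 0 differences in edgeR became 68 with DESeq2, 31 with lane within matrix, and 0 to 17 when libraries were left out, and stayed 0 without the replicate block. For LN523 against LN521, the 1 difference became 88 with DESeq2, 253 with lane within matrix, 0 with the filters, limma, all 27 libraries, no replicate block, or bias-adjusted deviances, and 0 to 124 when libraries were left out. The cause of these differences was not tested. Of 2669 values of the 123 named genes over the alternatives, 27 had another sign than the one reported, none of them a called gene. Genes under 1 CPM rest on few counts, and at 3 libraries a day with a biological coefficient of variation of 46.4%, values that missed the threshold are not shown to be level.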
